A study of Homo sapiens with 4 samples.

Results

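Myopalladin (MYPN), palladin (PALLD), myotilin (MYOT) and the alpha-actinins ACTN1, ACTN2 and ACTN4 are 6 of the 60721 genes in the count table. They were taken by name, as members of families whose proteins bind each other, because MYPN RNA was lower after siRNA against TLN1 in these same libraries. The set was thus chosen by the MYPN values of siTLN1 against SCR, and the values of that comparison for the 6 genes are given as a description. The libraries come from HS578T, an established cell line from a human breast carcinoma. All cells received GFP together with 1.6 µM of RNA, either a non-targeting control (SCR) or an siRNA to TLN1, the gene of the adhesion adaptor talin-1 (siTLN1). Polyadenylated RNA was collected at 48 h, with 2 libraries per group, described as biological replicas. Of the 6 genes, 4 (MYPN, PALLD, ACTN1 and ACTN4) passed the filter on low counts, and MYOT and ACTN2 did not.

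Alpha-actinins are antiparallel rod-shaped dimers that cross-link actin filaments, with an actin-binding head, a rod of spectrin repeats and calmodulin-like EF hands. ACTN2 and ACTN3 are the muscle forms, which anchor thin filaments in the Z-disc, and ACTN1 and ACTN4 are the forms of stress fibres, focal adhesions and lamellipodia. Palladin, myopalladin and myotilin share immunoglobulin domains and bind alpha-actinin. Palladin occurs along stress fibres of many cell types, whereas myopalladin and myotilin are best known from the Z-disc of striated muscle.

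Total counts were 31854322 to 46353297 per library, and 99.9% of them fell in the 16137 genes tested. TLN1 stood at 868 and 874 CPM (counts relative to library size, scaled for library composition) in SCR and at 51.9 and 44.8 CPM in siTLN1, which is 5.55% of the SCR mean. The labels describe the line as epithelial, but only 5 of 15 epithelial marker genes reached 1 CPM in every library. Those 5 included KRT18 at 104 to 131 CPM and KRT14 at 66.2 to 127 CPM. KRT8 lay at 15.1 to 20.7 CPM, KRT7 at 6.29 to 9.58 CPM and CLDN4 at up to 1.57 CPM. Among the others, EPCAM lay between 0 and 0.144 CPM and GRHL2 had 0 counts throughout. All 11 mesenchymal markers exceeded 1 CPM in every library. Of 17 striated muscle markers, TTN and TNNT1 exceeded 1 CPM in every library, and the defining genes MYOD1, MYOG, MYH6 and MYH7 had 0 counts in all libraries, as did TNNI1 and TNNT3. Smooth muscle markers were present, 7 of 9 above 1 CPM, with summed levels between 1716 and 1721 CPM.

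The coding sequences of the families show how far reads can be told apart. All sequences here are read from GENCODE 29 transcripts on GRCh38, taking for each gene the transcript whose coding sequence is longest. ACTN1 (coding length 2790 bases) and ACTN4 (2733 bases) were identical at 82.6% of 2630 aligned bases. Windows of 50 bases were moved along by 1 base at a time, and 34 of them occurred in both. Windows within 1 run overlap, so they are not separate regions. Their longest common stretch, in exon 10 of each, is 73 bases long at chr14:68892102-68892174 on the minus strand and chr19:38717195-38717267 on the plus strand. In the palladin family the longest stretch common to MYPN (3960 bases) and PALLD (3369 bases) is 19 bases, at chr10:68206847-68206865 and chr4:168925022-168925040. MYPN and PALLD were identical at 68.0% of 2486 aligned bases. Each line is 1 shared run, 5′ to 3′ on the transcript.
ACTN1 and ACTN4: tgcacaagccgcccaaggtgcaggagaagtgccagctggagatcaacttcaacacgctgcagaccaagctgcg
MYPN and PALLD: tgtcagccaagaatgaagc
A read lying wholly in the longer run cannot be assigned to ACTN1 or ACTN4 by its sequence, and how many reads lay there is not known from the counts. The longest run common to MYPN and MYOT was 11 bases, and no stretch of 50 bases was shared within the palladin family. No 50-base stretch of ACTN2 recurred in ACTN1 or ACTN4, where the longest common runs were 45 and 44 bases.

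A second set of sequences is shown because 3 of the 4 tested genes carry the same 7-base word. The word GACAACA was taken from an earlier look at these data, in which genes with it in the 3′ UTR tended to be lower in siTLN1, so it is no independent lead. It was searched on the transcript strand only, and copies of it cannot overlap. TLN1 itself holds 1 copy, in exon 41 of 57 (codon 1810). MYPN holds 1 copy in exon 11 of 20 (codon 703). ACTN1, ACTN2 and ACTN4 each hold 1 copy in exon 17, and the chosen transcripts of PALLD and MYOT hold none. Each line gives 29 bases around the word, which is in capitals; for ACTN3, the alpha-actinin outside the set, the aligned 7 bases are in capitals.
TLN1, chr9:35706026-35706054, minus strand: gtagaggacctGACAACAaccctcaacga
MYPN, chr10:68174190-68174218, plus strand: cccccagcggtGACAACAtccagtaagca
ACTN1, chr14:68880822-68880850, minus strand: cgctcatcttcGACAACAagcacaccaac
ACTN4, chr19:38725863-38725891, plus strand: ccctcatcttcGACAACAagcacaccaac
ACTN2, chr1:236755158-236755186, plus strand: cccttgtctttGACAACAagcacacgaac
ACTN3, chr11:66561597-66561625, plus strand: gcctggtgttcGACAATAagcacaccgtc
The actinin copies sit at 1 aligned place, with 28 of 29 window bases identical between ACTN1 and ACTN4 and 24 between ACTN1 and ACTN2. ACTN3 matches 6 of the 7 word bases there. The MYPN copy lies elsewhere, in sequence of which only 8 of 29 window bases could be aligned with PALLD. The stretch that each gene shares with TLN1 through the word is 8 bases long in MYPN, ACTN1 and ACTN4 and 9 in ACTN2. Among all transcripts annotated as coding, 4 of 5 of MYPN, 8 of 14 of ACTN1, 4 of 6 of ACTN4, 3 of 3 of ACTN2, 1 of 13 of PALLD and 0 of 3 of MYOT contained the word. The coding sequences of 14.99% of 19684 genes hold it, and so do those of 31.9% of the 634 genes whose coding length is within 10% of that of MYPN.

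MYPN (ENSG00000138347.15, chr10:68106117-68212017, plus strand) fell to 31.7% of its SCR mean. Its raw counts were 452 and 390 in SCR libraries a and b and 152 and 183 in siTLN1 libraries a and b. Its CPM was 14.2 and 11.2 in SCR and 4.18 and 3.89 in siTLN1. Both siTLN1 libraries lay below both SCR libraries, as in 24.6% of all tested genes. The spread within SCR, 12.7 ± 2.14 CPM (SD, n = 2), was wider than that within siTLN1, 4.03 ± 0.199 CPM. The log2 fold change was −1.66 (SE 0.15), with a 95% interval from −1.98 to −1.33. Of 16137 genes, 26 (0.161%), MYPN and TLN1 among them, had a log2 fold change at least as low, a rank that follows from how the gene was chosen. Leaving out 1 library at a time gave log2 fold changes from −1.82 to −1.47. No other annotated gene shares exon bases with MYPN.

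PALLD (ENSG00000129116.19, chr4:168497052-168928457, plus strand), the broadly expressed relative, had 299 and 283 CPM in SCR and 308 and 290 CPM in siTLN1. The groups overlapped. The means were 290.7 ± 11.2 and 298.9 ± 13.2 CPM (SD, n = 2), and the log2 fold change of 0.04 (SE 0.093) had a 95% interval from −0.16 to 0.24, which corresponds to 0.897 to 1.18 times the SCR level. Without siTLN1 library a, the log2 fold change was −0.01. Of its exon bases, 1.07% are shared with CBR4 on the opposite strand.

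MYOT (ENSG00000120729.10, chr5:137867858-137887851, plus strand) was not detected in the SCR libraries, with 0 counts in each, and had 0 and 1 count in siTLN1. A count of 0 allows up to 0.0944 and 0.0861 CPM in the SCR libraries, where 3 counts are taken as the limit and counting error alone is covered. Of its exon bases, 54.1% are shared with PKD2L2-DT on the opposite strand. How many reads on those bases went uncounted is not known, and the limit leaves this out. By depth alone, MYOT and ACTN2 were both at or under this limit, and no fold change is given for them. ACTN2 (ENSG00000077522.13, chr1:236664141-236764631, plus strand), the cardiac and skeletal muscle alpha-actinin, had 0 and 0 counts in SCR and 0 and 2 in siTLN1.

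ACTN1 (ENSG00000072110.13, chr14:68874143-68979440, minus strand) stood at 947 and 955 CPM in SCR and at 834 and 777 CPM in siTLN1. Both siTLN1 libraries were lower than both SCR libraries, at 84.7% of the SCR mean, a pattern without overlap that 24.6% of all tested genes showed in this direction. The means were 951 ± 5.59 and 805.5 ± 40.3 CPM (SD, n = 2), and the log2 fold change was −0.24 (SE 0.099, 95% interval −0.45 to −0.03). ACTN1 shares 2.82% of its exon bases with the pseudogene HMGN1P3, which had 0 counts.

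ACTN4 (ENSG00000130402.12, chr19:38647649-38731589, plus strand), the other non-muscle form, stood at 1194 and 1332 CPM in SCR and at 1058 and 1066 CPM in siTLN1. Both siTLN1 libraries were again the lower ones, at 84.1% of the SCR mean, a pattern that 24.6% of all tested genes showed. The means were 1263 ± 97.6 and 1062 ± 5.64 CPM (SD, n = 2), and the log2 fold change was −0.25 (SE 0.10, 95% interval −0.47 to −0.03). CAPN12 on the opposite strand shares 14.2% of the exon bases of ACTN4 and had 10 to 22 counts. How many ACTN4 reads on those bases went uncounted is not known. ACTN1 and ACTN4 did not pass the threshold of an adjusted p of 0.05 in edgeR's quasi-likelihood test. MYPN was the 1 of 4 tested genes past that threshold, which 6.07% of all 16137 genes passed (3.77% lower and 2.3% higher), and nothing is read from this because the same contrast chose the set.

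ACTN3 was near the lower limit of the test, with 9 and 20 counts in SCR and 12 and 15 in siTLN1. Its log2 fold change of −0.42 (SE 0.46) turned to 0.19 without SCR library b, so no direction is given for it.

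**Figure D1:**
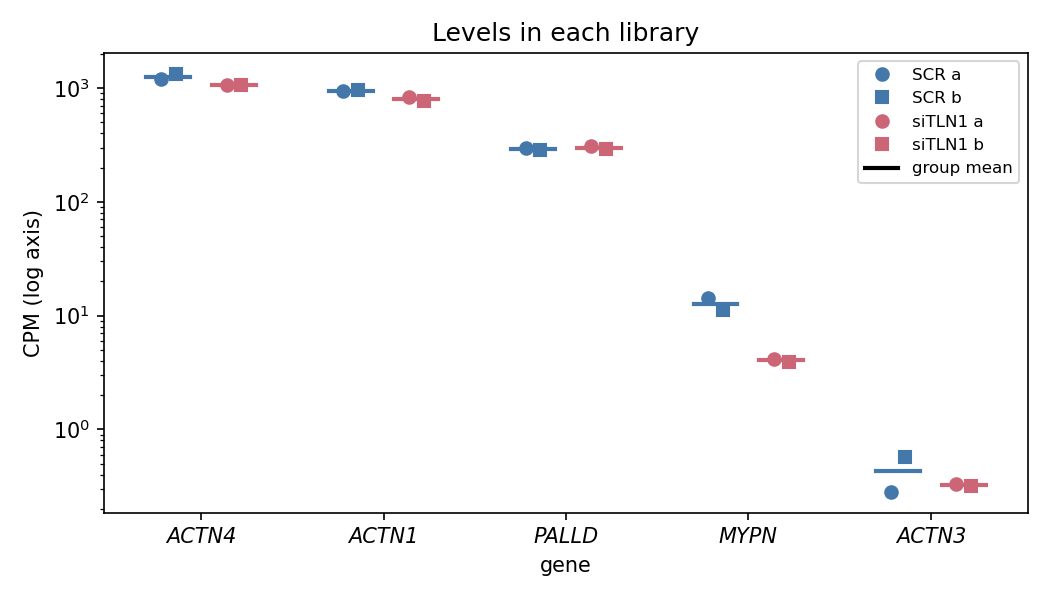
CPM on a log axis of ACTN4, ACTN1, PALLD, MYPN and ACTN3 in each library (circles for a, squares for b), SCR in blue beside siTLN1 in red, with a line at each group mean. The MYPN libraries separate by group at 14.2 and 11.2 against 4.18 and 3.89 CPM, the PALLD libraries overlap, and the ACTN1 and ACTN4 libraries separate by a smaller margin. Of all tested genes, 24.6% separate with siTLN1 lower.

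**Figure D2:**
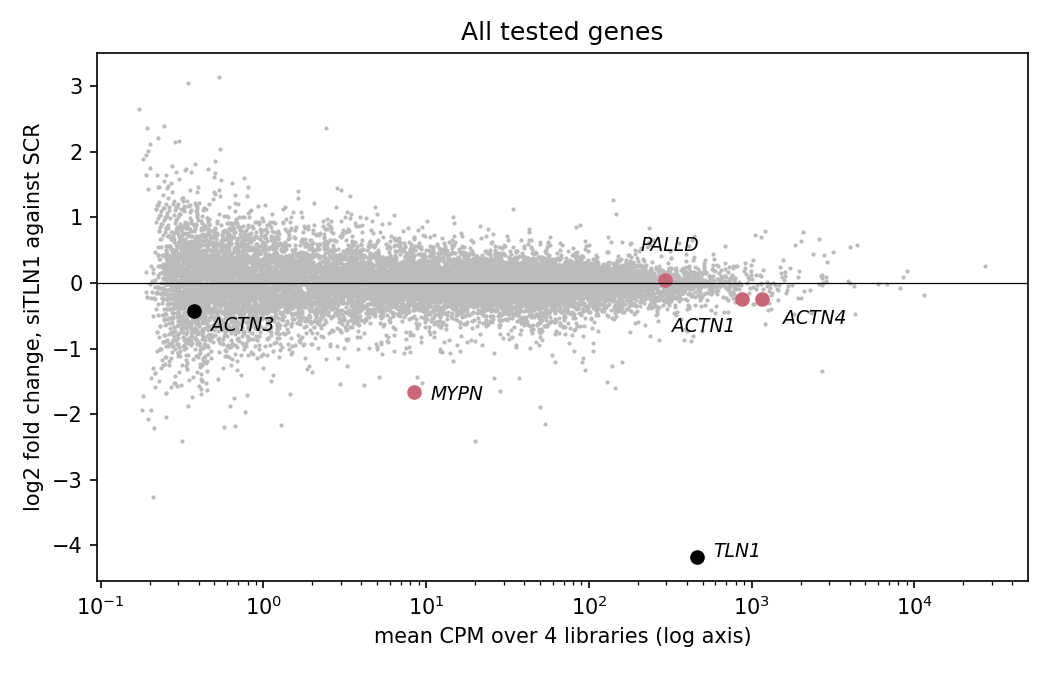
Log2 fold change, siTLN1 against SCR, of every tested gene against its mean CPM over the 4 libraries on a log axis, with the tested genes of the set in red and TLN1 and ACTN3 in black. MYPN lies at −1.66, with 26 genes at or below it, and PALLD, ACTN1 and ACTN4 lie between −0.25 and 0.04.

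Levels were compared between genes only as RPKM (scaled CPM per kilobase of exon). In this scale the order was ACTN4, ACTN1, PALLD and MYPN in every library. The SCR values were 195.7 and 218.3 RPKM for ACTN4, 89.1 and 89.9 for ACTN1, 27.9 to 29.5 for PALLD and 1.59 to 2.01 for MYPN, with none of these neighbours overlapping. By SCR level they ranked 113, 363, 1443 and 9635 among the 16137 genes. The exon lengths are those of all annotated exons, and the order of ACTN4 and ACTN1 depends on this: with the transcript that holds the longest coding sequence, ACTN4 made up 42.9% of the alpha-actinin sum in SCR instead of 69.7%.

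Within the palladin family, MYPN supplied 6.40% and 5.38% of the summed RPKM of MYPN, PALLD and MYOT in SCR and 1.91% and 1.89% in siTLN1. PALLD supplied the rest, apart from the MYOT count of 1. The ratio of PALLD to MYPN was 14.6 and 17.6 in SCR and 51.5 and 51.8 in siTLN1. The family sum stayed within its spread, at 30.5 ± 1.41 RPKM in SCR and 30.1 ± 1.32 RPKM in siTLN1 (SD, n = 2). With 2 libraries against 2, an exact two-sided permutation test cannot go below a p of 0.33, so these shares carry no test.

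The split between the actinins did not follow the groups. ACTN4 supplied 68.7% and 70.8% of the summed alpha-actinin RPKM in SCR and 68.8% and 70.5% in siTLN1. ACTN1 supplied almost all of the rest. The sum was 284.9 and 308.3 RPKM in SCR and 251.9 and 247.9 RPKM in siTLN1. ACTN4 to ACTN1 was 2.20 and 2.43 in SCR and 2.21 and 2.39 in siTLN1, so library b of each group had the higher ratio.

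**Figure D3:**
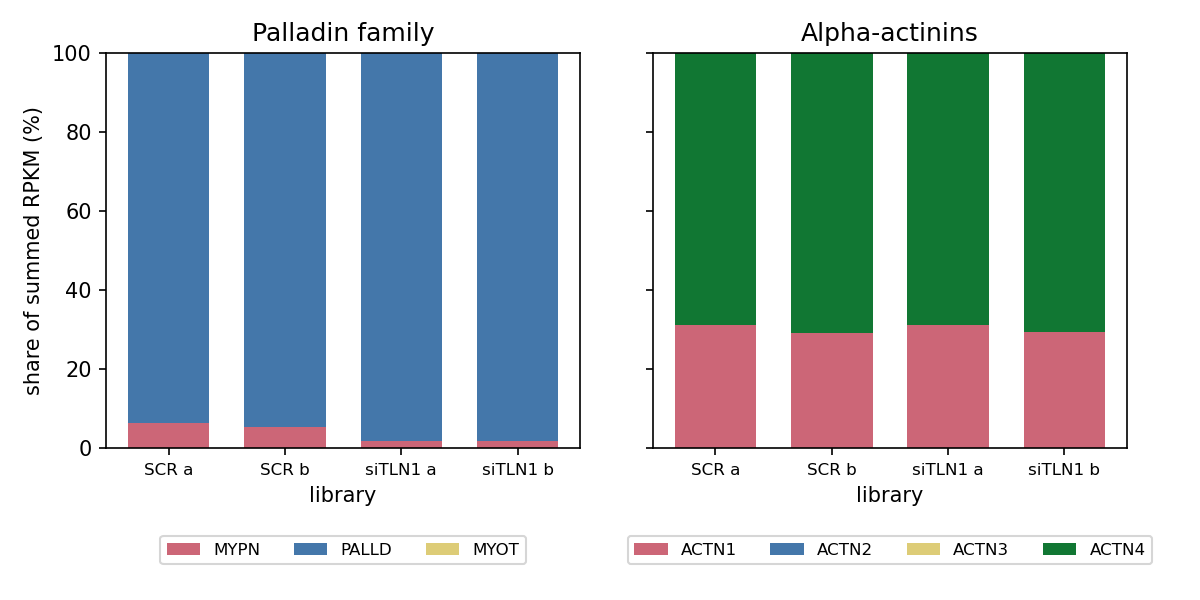
Share of each gene (%) in the summed RPKM of its family in each library, palladin family on the left and alpha-actinins on the right. The MYPN share is 6.40% and 5.38% in SCR against 1.91% and 1.89% in siTLN1, while the ACTN4 share lies between 68.7% and 70.8% in all 4 libraries.

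Genes around these proteins were read from 5 lists of structural relatives and partners. Together they held 153 genes, of which 119 were tested. In edgeR's quasi-likelihood test 4 rose and 4 fell at an adjusted p under 0.05, or 6.72%, against 6.07% of all tested genes. The count depended on single libraries. Without SCR library a, 7 rose and 6 fell (10.9%, against 6.92% of all tested genes). Leaving out siTLN1 library a gave 3 that rose and 2 that fell (4.2%, against 2.15%). Leaving out siTLN1 library b gave 10 that rose and 1 that fell (9.24%, against 5.24%). Their median log2 fold change was −0.03, and that of all tested genes was 0.00.

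Of 23 tested Z-disc and sarcomere genes, ANKRD1 alone passed the test (4.35%, against 6.07% of all tested genes), and the list median was −0.06. ANKRD1 encodes an ankyrin-repeat protein that binds titin and myopalladin. It rose from 9.50 and 9.59 CPM in SCR to 14.97 and 15.7 CPM in siTLN1, with a log2 fold change of 0.68 (SE 0.12, adjusted p = 0.00205). Titin itself (TTN), the giant spring of the sarcomere, was at 6.57 and 6.63 CPM in SCR and 9.37 and 7.32 CPM in siTLN1 and did not pass. The summed striated muscle markers were 54.6 and 63.0 CPM in SCR and 53.1 and 54.9 CPM in siTLN1. TNNT1 made up most of this sum, at 46.1 and 54.1 CPM in SCR and 41.8 and 45.5 CPM in siTLN1. The part of these markers in the MYPN and ANKRD1 values was not tested. In such bulk RNA, fewer cells of a type and less RNA per cell cannot be told apart.

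Among 9 tested genes for intracellular proteins with immunoglobulin domains, the fold related to palladin's, 0 were called by edgeR's quasi-likelihood test and 0 by DESeq2. At an unadjusted p under 0.05 in the edgeR test there were 2. The share of all tested genes at that level is not given here, so nothing is read from this count. The list median was 0.09. MYLK, the myosin light chain kinase, was at 407 and 333 CPM in SCR and 352 and 296 CPM in siTLN1. NEXN, the actin-binding protein nexilin, was at 195 and 192 CPM in SCR and 233 and 227 CPM in siTLN1. Both siTLN1 libraries lay above both SCR libraries, as in 23.9% of all tested genes. The adjusted p of NEXN in edgeR's quasi-likelihood test was 0.127.

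Of 35 tested genes in the list of actin cross-linkers and bundlers, 3 were called, and all 3 rose. The calls changed when SCR library a was left out, and not all of them rose then. The list also holds other actin-binding proteins, such as the tropomyosins. MARCKSL1, a membrane-associated actin-binding protein, rose from 70.4 and 78.3 to 113 and 119 CPM, a log2 fold change of 0.64 (SE 0.096, adjusted p = 0.0006). DBN1, the actin side-binding protein drebrin, rose from 167 and 203 to 280 and 291 CPM (log2 fold change 0.63, SE 0.10, adjusted p = 0.00167). Called genes made up 8.57% of this list and 6.07% of all tested genes (2.3% higher and 3.77% lower). The list median was −0.01, and filamin A (FLNA), at 4261 and 4420 CPM in SCR, was at 4503 and 3902 CPM in siTLN1, with overlap.

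Of 19 tested relatives with spectrin repeats or a kindred actin-binding head, 1 (5.26%) was called, against 6.07% of all tested genes. This was SPTB, which fell. It encodes the beta spectrin of red cells and was at 1.48 and 1.90 CPM in SCR and 0.961 and 0.724 CPM in siTLN1 (log2 fold change −1.03, SE 0.27, adjusted p = 0.0341). The call was lost without SCR library b (adjusted p = 0.193), without siTLN1 library a (0.0681), without siTLN1 library b (0.192) and without the filter on low counts (0.0609). Without siTLN1 library b or without SCR library b, the genes of this list that were called were others, and they rose. The list median was −0.06, and DESeq2 called 0 genes of this list in either direction.

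Of 45 tested binding partners of palladin and alpha-actinin, 3 (6.67%) were called, and all 3 fell. Of all tested genes 6.07% were called, 3.77% lower and 2.3% higher. Without siTLN1 library b, 2 of the partners rose and 1 fell, and without SCR library a, 2 rose and 4 fell. The LIM-domain protein CSRP1, which binds alpha-actinin and zyxin, went from 264 and 277 CPM to 168 and 180 CPM, a log2 fold change of −0.64 (SE 0.093, adjusted p = 0.000474). ICAM1, an adhesion receptor whose cytoplasmic tail binds alpha-actinin, went from 34.2 and 33.05 CPM to 24.4 and 20.9 CPM (log2 fold change −0.57, SE 0.11, adjusted p = 0.0039). SORBS2, an adaptor that binds palladin, went from 64.7 and 67.0 CPM to 48.7 and 47.6 CPM, a log2 fold change of −0.45 (SE 0.094, adjusted p = 0.00815). ICAM1 missed the threshold without siTLN1 library b (adjusted p = 0.0552), and SORBS2 missed it without siTLN1 library a (0.081) or b (0.0576). Vinculin (VCL), which binds both talin and alpha-actinin, was at 837 and 785 CPM in SCR and 1070 and 942 CPM in siTLN1. Its siTLN1 libraries were the higher ones without overlap, as in 23.9% of all tested genes. The adjusted p of VCL in edgeR's quasi-likelihood test was 0.0896. The actin regulators VASP and PFN1 and the adhesion protein ZYX had adjusted p-values of 0.355, 0.691 and 0.765. Of 6 tested epithelial markers, 1 (KRT14) was called lower and 0 higher in the same comparison. Of 11 tested mesenchymal markers, 2 (SPARC and CDH2) were called lower and 0 higher. The part of these markers in the lists was not tested.

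**Figure D4:**
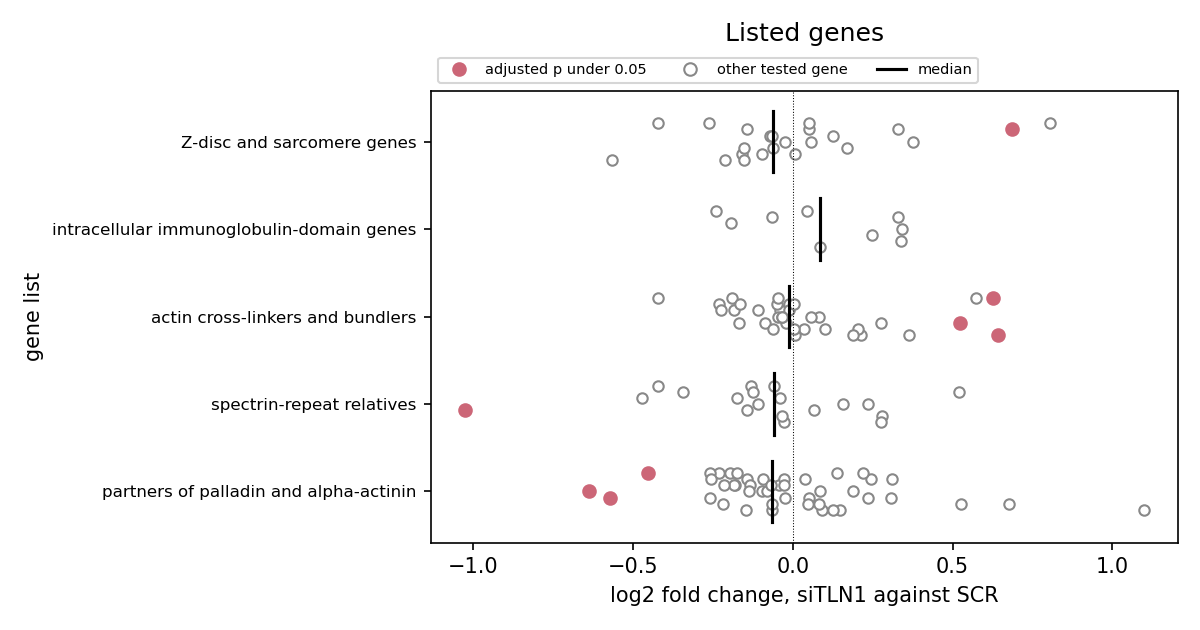
Log2 fold change, siTLN1 against SCR, of each tested gene in the 5 lists, with filled points for an adjusted p under 0.05 and a vertical bar at the list median. The medians lie between −0.06 and 0.09, and the 8 called genes lie to the right in the Z-disc and cross-linker lists and to the left in the spectrin and partner lists.

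Genes with a pattern like that of MYPN were sought among 10475 genes with a symbol and a mean of at least 5 CPM, by the Euclidean distance between log2 CPM values centred on each gene's mean over the 4 libraries. The nearest was EPAS1, the hypoxia-inducible factor 2 alpha, at a distance of 0.151. It was followed by the potassium channel gene KCNK2 (0.222), the cell cycle transcription factor MYBL2 (0.243), the cyclin Y-like gene CCNYL1 (0.273) and RCN2 (0.360), which encodes a calcium-binding protein of the endoplasmic reticulum. Their log2 fold changes were −1.50, −1.64, −1.60, −1.46 and −1.90. ACTN1 came at rank 1177 (distance 1.41), ACTN4 at 1304 (1.43) and PALLD at 5762 (1.68) of 10475. These distances use the values by which MYPN was picked and are given as a description. Likeness over 4 libraries in 2 groups mainly finds genes with the same difference between groups.

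**Figure D5:**
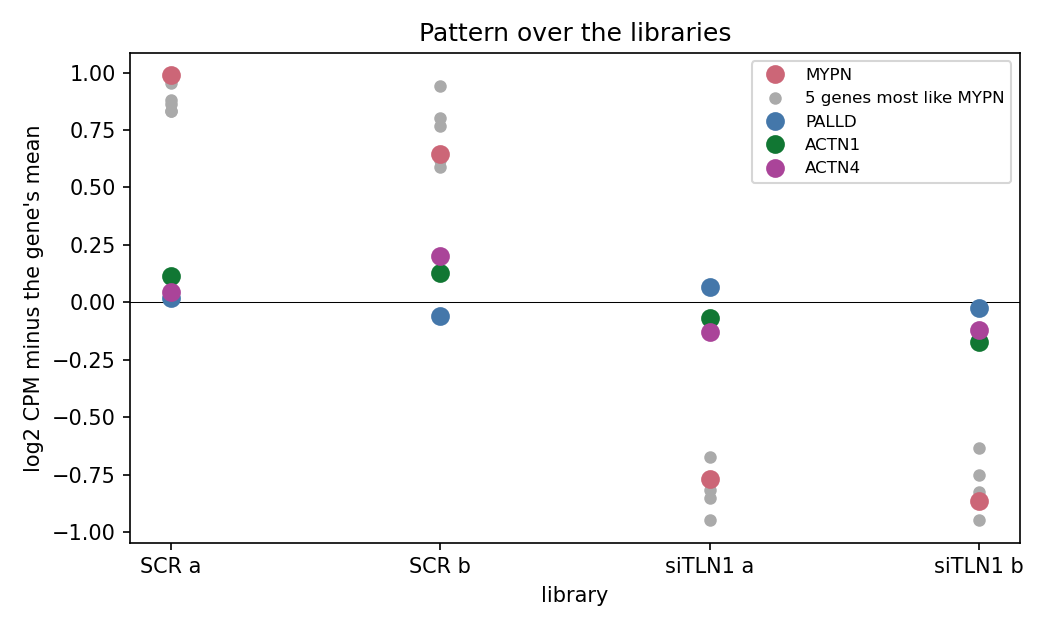
Log2 CPM, centred on each gene's mean, in the 4 libraries for MYPN, its 5 nearest genes and the other tested genes of the set. MYPN and the nearest genes share high SCR and low siTLN1 points, at distances of 0.151 to 0.360, while PALLD, ACTN1 and ACTN4 stay close to 0.

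The transcripts of these nearest genes hold the word GACAACA, as do 22.7% of 12863 tested genes with a coding transcript. Both the word and the nearest genes were picked from the same comparison, so this adds no support. EPAS1, KCNK2, RCN2 and CCNYL1 hold it in the 3′ UTR, and CCNYL1 and MYBL2 in the coding sequence. Among 944 tested genes with the word in the 3′ UTR, the median log2 fold change was −0.10 and 16.7% were called lower. The word was picked for this trait in these same data, so that share adds no support either. In 1872 genes the word was in the coding sequence but not in the 3′ UTR of the chosen transcript. For these, the class of MYPN, ACTN1 and ACTN4, the median was −0.02 and 6.20% were called lower. The chosen transcript has a 3′ UTR of only 3 bases in ACTN1 and 95 bases in PALLD, and their longer transcripts were not classed. Among 9944 genes without the word, the median was 0.02 and 2.90% were called lower. In the same order, 2.01%, 2.24% and 2.79% of these classes were called higher. The classes were not matched for length, and TLN1 was left out of these counts. MYPN, ACTN1 and ACTN4 carry the word and PALLD's chosen transcript does not, but the word's part in their levels was not tested.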

How the data were processed

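Stranded mRNA libraries were made from HS578T cells, per the labels' protocols. The authors deposited raw counts of read pairs per gene, made with featureCounts 2.0.0 on GENCODE 33 (GRCh38), per the file headers. Its command line sets neither strand nor the counting of multi-mapping reads, per the file headers. STAR 2.7.9a is named in the submitters' processing notes. The exon length of each gene is another column of the deposited count table, in bases. The authors also deposited log2 CPM values, whose scaling the file does not state. The header of each count column gives a group and a number, and the same numbers recur in both groups but occur in no label. Libraries with the lower number are called a here and the others b, and they are not used as pairs. Replicates are described as biological replicas; what separates them is not stated, so p-values measure the spread between these libraries.

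Genes were kept with filterByExpr (minimum count 10, minimum total count 15). The comparison used edgeR 4.0.16 under R 4.3.3 (TMM, estimateDisp, robust glmQLFit, glmQLFTest) with Benjamini-Hochberg adjustment over 16137 genes. The biological coefficient of variation was 0.0805. Intervals of log2 fold changes are 95% intervals of that fit. RPKM is scaled CPM per kilobase of exon. Sequences came from GENCODE 29, a release other than that of the counts, and were aligned with Biopython 1.88. The named genes are the 6 genes, TLN1, ACTN3, up to 4 called genes per list with the smallest p, and the 5 genes most like MYPN; TTN, MYLK, NEXN, FLNA, VCL, VASP, PFN1, ZYX and the marker genes were named in addition, after their values were seen. Of the genes this rule selects, 1 is not reported here. The genes and lists were chosen with earlier results of these data known. The fit was tested on simulated data. Alternatives were RLE scaling, total counts only, other filters, DESeq2 1.42.0, limma 3.58.1 (voom and trend), a replicate block, each library left out, and other gene lengths.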

Additional observations from a re-analysis of the deposited data

How the results depend on the processing

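MYPN kept a log2 fold change between −1.66 and −1.63 under the 8 alternatives that used all libraries, and it was the 1 of the 6 genes called under each of them except the replicate block. Replicate numbers were shared between groups in the log2 CPM table, but no label says what they mark, and with 2 pairs the deviations correlated with r = 0.19 over all genes and 0.54 over 10487 genes of at least 5 CPM. A limma-trend fit with the replicate block called 3650 genes instead of 980, 3 of the set instead of 1 (MYPN, ACTN1 and ACTN4) and 41 list genes instead of 8 (34.5% of the tested list genes, against 22.6% of all tested genes). Other settings with all libraries called 663 to 1253 genes. With 1 library left out, where the lone library was assumed to vary like the other group, 347 (without siTLN1 a) to 1116 (without SCR a) genes, 5 to 13 list genes and 1 to 1 of the set were called. Over 19 named genes, 1 of 151 values with all libraries lost the call (SPTB), 2 gained it (ACTN1 and ACTN4 with the block) and 0 changed direction. The 151 hold no DESeq2 value for SPTB, and DESeq2 called 0 genes of its list. Of 76 values with 1 library left out, 7 lost the call and 2 changed direction, those of PALLD and ACTN3, neither of which was called. The MYPN share of its family in SCR and siTLN1 was 5.89% and 1.90% by exon length, 2.57% and 0.81% by the transcript with the longest coding sequence, and, by lengths chosen after seeing the data, 3.98% and 1.27% by the longest coding transcript and 3.58% and 1.14% by coding sequence. The ACTN4 share was 69.7% and 69.6%, 42.9% and 42.8%, 50.2% and 50.1%, and 57.5% and 57.4% in the same order. These differences follow from the lengths alone. Depth limits MYOT, ACTN2 and ACTN3. The exon bases that MYOT shares with PKD2L2-DT and ACTN4 shares with CAPN12 were not accounted for.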
